A study of Mus musculus with 39 samples.

Results

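The comparison concerned leukemias of the mouse that arose after pIpC and leukemias whose description does not mention it. Of 39 expression arrays of sorted bone marrow B-lineage cells, the 16 labelled leukemic pre-B were used, and they were split by whether the description mentions pIpC. There were 5 pIpC arrays (A992, A1322, A1507, 270 and A46). The other 11 arrays, here called no pIpC, were 116, 117, 122, 153, 154, 224, 226, 227, 228, 15 and 17. All 16 were sorted as B220+ CD43- IgM- IgD-, the surface pattern of pre-B cells, and the series title describes the leukemias as MLL-AF4. Only array 116 has an allele in its description, an Mll-AF4stop knock-in, and that description does not state leukemia. No strain, age, Cre line, pIpC dose or interval to leukemia is given in the labels used here. No label states that each array came from a separate animal, and the p-values reflect only how these arrays varied.

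MLL-AF4 joins the histone methyltransferase MLL (Kmt2a in the mouse) to AF4 (Aff1), and the fusion is known for keeping Hoxa genes active in early B-cell leukemia of infants. pIpC is a synthetic double-stranded RNA. Cells sense it through Tlr3 and the helicase Ifih1 (MDA5), and the interferon that follows acts through Ifnar1, Jak1 and Stat factors on a large set of response genes. In mouse genetics pIpC is often used to switch on a Cre recombinase driven by the interferon-responsive Mx1 promoter.

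All levels below are log2 of the deposited array intensities, and a difference is pIpC minus no pIpC with the accession run as a covariate. The accession numbers form 2 consecutive runs, which no label calls a batch. Run 1 held 3 pIpC and 9 no pIpC arrays, and run 2 held 2 of each. The median of all genes lay between 6.75 and 6.92 on pIpC arrays and between 6.59 and 7.13 on no pIpC arrays. A level under 3.93, the 20th percentile of all gene values on the 16 arrays, is called near background.

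Several arrays had readings unlike those of the other arrays. Array 122 was low in B-lineage transcripts: Cd79a, a chain of the B-cell receptor, was at 7.0 there against 10.66 to 12.04 on the other 15 arrays, and the surrogate light chain gene Igll1 was at 6.66 against 10.50 to 12.07. On the same array the mean of 17 myeloid markers was 9.33, the highest of the 16. On Mycn probe set 1425923_at the array labelled no pIpC 17 read like the pIpC arrays, as described next. On array 153 the female-specific Xist (9.65) and the Y-linked Eif2s3y (7.73) were both well above background. The other arrays high in Eif2s3y had lower Xist, between 4.57 (A46) and 7.30 (17), which is also above the limit of 3.93. The counts of genes, the Mycn probe set, the leading signs and several lists are given with and without arrays 17 and 122, and the cause of these departures was not tested.

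A single Mycn probe set was called between the leukemias, with array 17 as the exception to its pattern. Mycn encodes N-Myc, a transcription factor of the MYC family that is used by progenitor cells and is amplified in some tumours. Probe set 1425923_at read 3.28, 3.36, 3.65, 3.27 and 3.21 on pIpC arrays A992, A1322, A1507, 270 and A46. On no pIpC arrays it read 12.87 (116), 13.36 (117), 13.29 (122), 12.68 (153), 11.66 (154), 13.24 (224), 13.16 (226), 13.08 (227), 13.14 (228), 13.27 (15) and 3.41 (17). All 5 pIpC arrays were near background, 10 of the 11 no pIpC arrays were at 11.66 or above, and array 17 lay with the pIpC arrays. The 23 normal B-lineage arrays were also near background on it, between 2.71 and 3.81 with a median of 3.23. The difference was -8.15 (SE 1.11), a size that rests on a pIpC level near background, with an adjusted p of 0.0341 in limma over all 22626 probe sets. It was the only probe set called, which is 0.00442% of those tested.

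Without array 17, the no pIpC arrays averaged 12.98 ± 0.50 (SD, n = 10) against 3.35 ± 0.18 on pIpC arrays (SD, n = 5), so no fold is given because the pIpC level was near background. The difference was then -9.63, and without both 17 and 122 it was -9.60. Array 17 was set aside here because of its value on this same probe set, so these values are a description and carry no test. With all 16 arrays the groups overlapped on this probe set, since array 17 (3.41) lay within the pIpC range. The pattern was seen within run 2 for 3 of its 4 arrays, where 270 and A46 stood at 3.27 and 3.21 and array 15 at 13.27, while array 17 was the exception. This probe set was singled out after its values were seen.

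The other Mycn probe sets did not show the pattern. Probe set 1425922_a_at averaged 5.83 ± 0.50 on pIpC arrays and 6.06 ± 0.69 on no pIpC arrays, a difference of -0.07 (95% interval -0.74 to 0.59). Probe set 1417155_at averaged 4.12 ± 1.5 on pIpC arrays and 3.52 ± 0.57 on no pIpC arrays, a difference of 0.58 (95% interval -0.46 to 1.61). Limma adjusted p-values were 0.990 and 0.971. On 1417155_at the normal arrays reached 7.67, above every leukemic array. The 3 probe sets thus gave no common Mycn level, and which transcript or sequence 1425923_at measured was not tested.

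**Figure D1:**
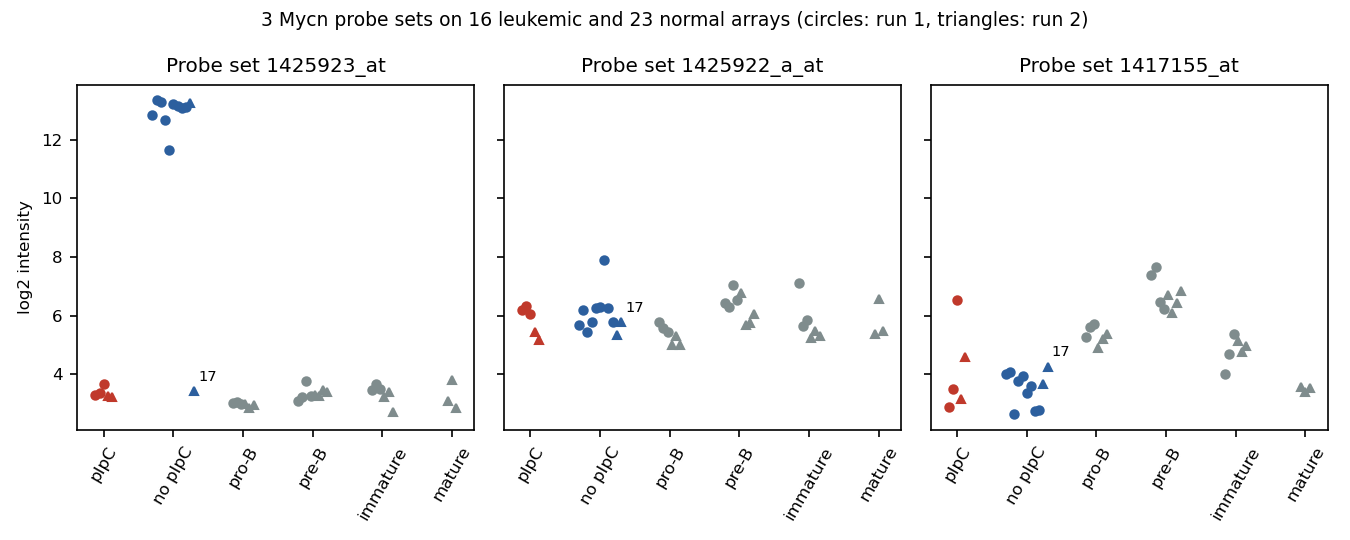
Log2 intensity of the 3 Mycn probe sets (1 panel each) on every array, with leukemic pIpC and leukemic no pIpC arrays first and the normal stages after them; each point is 1 array, circles are run 1 and triangles run 2. On 1425923_at the pIpC arrays and array 17 lie near 3 with the normal cells, and the other no pIpC arrays lie between 11.66 and 13.36.

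With 1 probe set per gene, no gene was called. Of 12393 genes, 0 (0%) passed a limma adjusted p of 0.05, and the smallest adjusted p was 0.569. At an unadjusted p under 0.05 there were 569 genes (4.59%), 396 higher (3.2%) and 173 lower (1.4%) with pIpC. The median difference over all genes was -0.003. The data bounded many differences: the 95% interval lay within 2-fold in both directions for 9544 genes (77.0%), while 276 genes had an estimated difference of at least 2-fold, 150 higher and 126 lower.

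**Figure D2:**
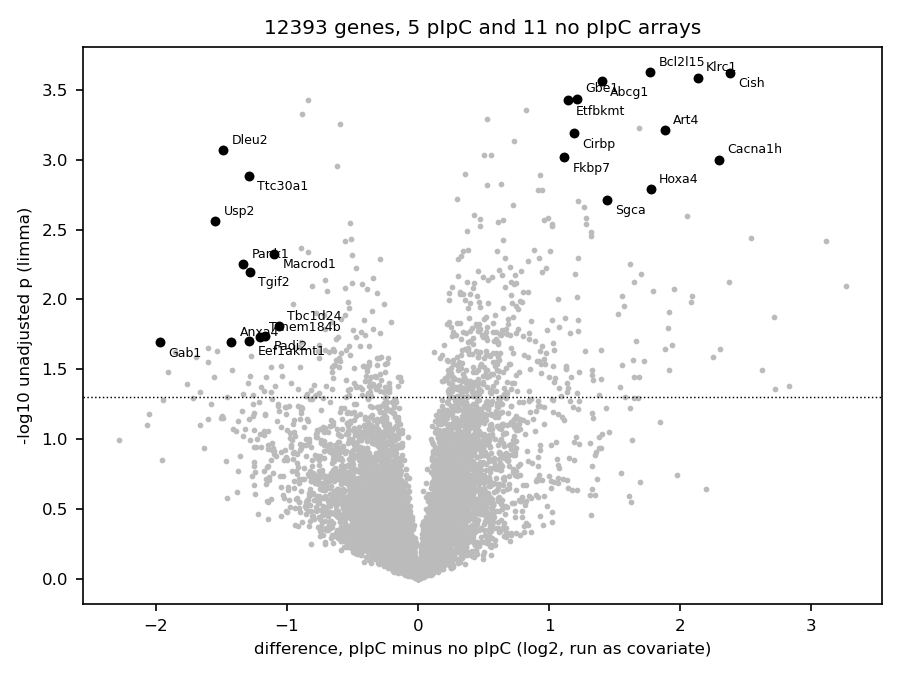
Difference with pIpC (log2, x axis) against -log10 of the unadjusted p (y axis) for 12393 genes; the dotted line marks p = 0.05 and the black points are the 24 genes described next. None of them passed the adjusted threshold.

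The genes with the smallest p-values are given as leading differences, none of them called. Cish, a STAT5-induced feedback inhibitor of cytokine receptors, read 9.42, 7.87, 9.36, 8.79 and 6.84 on pIpC arrays A992, A1322, A1507, 270 and A46, against a lowest of 4.52, a median of 6.15 and a highest of 7.76 on no pIpC arrays. In pIpC leukemias only A46 overlapped the other group. The difference was 2.38 (SE 0.51, adjusted p 0.569), and normal pre-B cells averaged 5.09 ± 0.21 (SD, n = 8). Bcl2l15, a BCL2-family member, read 7.53, 6.49, 6.90, 7.74 and 5.53 on the same pIpC arrays, against 4.42 to 6.44 with a median of 4.95 (difference 1.77, SE 0.38).

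Abcg1, a cholesterol efflux transporter, read 9.69, 9.79, 10.10, 9.33 and 9.09 with pIpC, against 6.69 to 9.01 with a median of 8.56 without. Its groups did not overlap, the difference was 1.40 (SE 0.30), and the pIpC level was near that of normal pre-B cells (9.86 ± 0.27, SD, n = 8), a likeness that was not tested. Gbe1, the glycogen branching enzyme, read 8.95, 8.48, 8.53, 8.57 and 8.39 with pIpC, against 6.34 to 8.06 with a median of 7.51 (difference 1.21, SE 0.27). The pIpC values of Gbe1 were tightly grouped (SD 0.22). Cirbp, a cold-inducible RNA-binding protein, read 9.87, 8.44, 9.63, 8.69 and 8.60, against 6.94 to 8.41 with a median of 8.06 (difference 1.19, SE 0.28).

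These were among 6 genes (0.0484% of those tested) with every pIpC array above every no pIpC array. The other 3, named after their values were seen, were Acpp, an acid phosphatase (difference 0.93), Resf1, a retroelement silencing factor (0.47), and St6gal1, a sialyltransferase of B-cell surface glycans (1.16). A single gene (0.00807%) had every pIpC array below every other. It was Dleu2, a non-coding RNA gene that hosts a microRNA cluster, with 6.22, 7.80, 8.52, 8.44 and 8.44 on pIpC arrays, against 8.56 to 10.06 with a median of 9.43. The difference was -1.49 (SE 0.36), and the nearest arrays of the groups, at 8.52 with pIpC and 8.56 without, lay close together.

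Further leading genes had higher levels on part of the pIpC arrays only. Cacna1h, a T-type calcium channel, read 7.94, 4.67, 7.68, 7.33 and 3.51 with pIpC, against 3.63 to 4.89 without: A992, A1507 and 270 stood above all no pIpC arrays, while A1322 and A46 did not. Klrc1, an inhibitory receptor of NK cells, was at 6.94 and 7.61 on A1322 and A1507 and at 4.86, 3.46 and 4.20 on A992, 270 and A46, against 2.93 to 4.90. Sgca, a sarcoglycan of muscle, was at 7.41 and 7.65 on A992 and A1507 and between 4.80 and 5.33 on the rest, against 4.23 to 5.76. Differences were 2.29 for Cacna1h, 2.13 for Klrc1 and 1.44 for Sgca. Fkbp7, an isomerase of the endoplasmic reticulum (1.11), Etfbkmt, a mitochondrial methyltransferase (1.14), and Art4, a blood-group ADP-ribosyltransferase (1.88), each had 4 of 5 pIpC arrays above all 11 others.

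The 12 leading lower genes were also uncalled. Gab1, an adaptor of receptor kinases, read 5.08, 4.65, 6.38, 3.84 and 4.14 with pIpC, against 4.30 to 10.40 with a median of 7.61. The difference was -1.97 (SE 0.76), but no pIpC arrays 122, 154, 15 and 17 lay at 5.39 or below. Usp2, a ubiquitin protease, read 4.08, 4.35, 4.67, 5.45 and 4.44, against 4.28 to 7.25 with a median of 6.35 (difference -1.55, SE 0.44). Tgif2, a homeobox repressor of TGF-beta responses, read 5.65, 7.08, 5.75, 6.64 and 5.11, against 5.59 to 8.46 with a median of 7.68 (difference -1.28, SE 0.41).

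In each of these 3 genes a minority of no pIpC arrays reached down to the pIpC range, and array 17 was at the low end of Gab1 and Tgif2. Anxa4, a calcium-dependent membrane-binding protein, had 4 of 5 pIpC arrays below all others (5.32 to 6.70 against 5.95 to 9.45, difference -1.42). Padi2, which converts protein arginine to citrulline, lay between 7.42 and 9.90 against 8.11 to 12.29 (-1.17). Pank1, a kinase of coenzyme A synthesis (-1.33), Ttc30a1, a component of cilia (-1.29), Eef1akmt1, a methyltransferase of a translation factor (-1.29), Tmem184b (-1.20), Macrod1, an ADP-ribose hydrolase (-1.10), and Tbc1d24, a vesicle-traffic protein (-1.06), completed the set.

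Each of the 24 leading differences kept its sign in each run alone and with arrays 17 and 122 left out. Without those 2 arrays Cish differed by 2.56, Abcg1 by 1.45, Macrod1 by -0.85, Tgif2 by -1.70 and Gab1 by -2.47. Their sizes depended on the run for some: Fkbp7 differed by 1.5 in run 1 and by 0.23 in run 2, Klrc1 by 2.74 and 0.77, and Hoxa4 by 0.95 and 3.63. Fitting all 39 arrays together called 79 of 12393 genes (65 higher, 14 lower), among them Cish, Bcl2l15, Abcg1 and Hoxa4. There the normal arrays shared the estimate of spread. The SE of Abcg1 was 0.23 in that fit, against 0.30 in the fit of the leukemias alone. The 79 calls thus rest in part on the spread of normal cells and add no support to the leading genes.

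**Figure D3:**
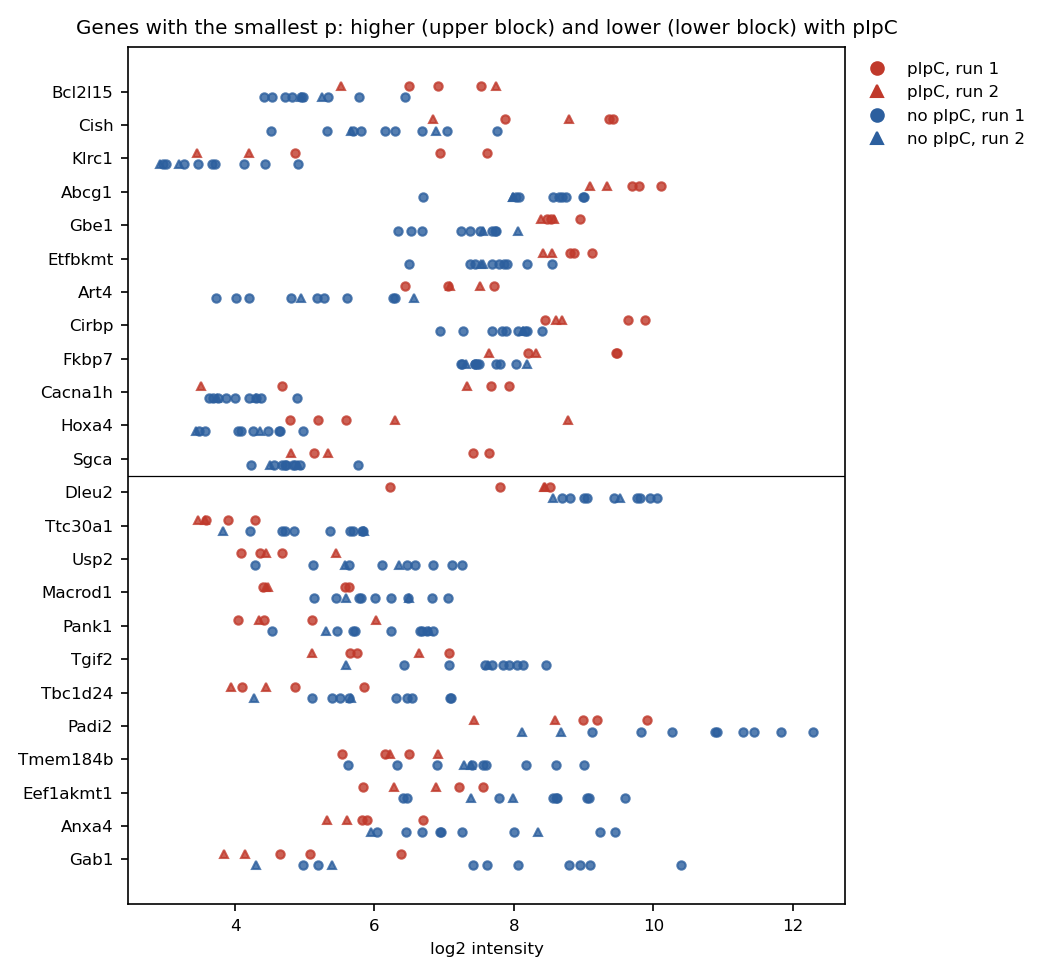
Log2 intensity (x axis) of the 12 leading higher and 12 leading lower genes (rows), with pIpC arrays in red above no pIpC arrays in blue in each row; each point is 1 array, circles are run 1 and triangles run 2. Abcg1, Gbe1, Cirbp and Dleu2 show no overlap between the groups, and in Cacna1h and Gab1 1 group spreads over more than 4 log2 units.

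Hoxa genes, the best known targets of MLL fusions, were higher on average with pIpC, without a called member. Of 9 measured members of 11 listed, 0 were called, and 4 were higher and 0 lower at an unadjusted p under 0.05, against 3.2% and 1.4% of all genes. The median difference of the 9 was 1.21, against -0.003 for all genes. Hoxa4 read 5.59, 4.78, 5.19, 8.78 and 6.29 with pIpC, against 3.44 to 4.98 with a median of 4.26, a difference of 1.77 (SE 0.47, adjusted p 0.707). On Hoxa4, 4 of 5 pIpC arrays lay above the other group, and 270 was highest. Hoxa7 read 7.75, 6.97, 6.80, 8.11 and 8.28, against 5.44 to 7.87 with a median of 6.19 (difference 1.07, SE 0.37).

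Hoxa9, the main Hoxa transforming factor in MLL leukemia, was uniform with pIpC and split without it. It read 11.08, 10.86, 10.65, 10.64 and 11.03 on pIpC arrays, against 3.24 to 11.24 with a median of 10.71 on no pIpC arrays. Arrays 116, 117 and 154 were at 3.78, 4.52 and 3.24, near the 4.11 ± 0.50 of normal pre-B cells (SD, n = 8), array 15 was at 8.36, and the other 7 were at 10.19 or above. The difference of 1.98 therefore came with a wide 95% interval, -1.03 to 4.98. Hoxa10 was split in both groups, with 10.08, 10.14, 6.80, 9.47 and 4.89 against 3.23 to 10.84. Hoxa3 (1.21), Hoxa2 (1.09) and Hoxa5 (1.22) were higher on average, while Hoxa11 and Hoxa13, between 2.75 and 4.41 everywhere, differed by -0.01 and -0.07. Hoxa2 and Hoxa3 were among the members at an unadjusted p under 0.05. On Hoxa2, pIpC arrays 270 (8.04) and A46 (5.84) of run 2 stood above the no pIpC range of 3.31 to 5.71. Run 1 arrays A992, A1322 and A1507 lay within that range. On Hoxa3, no pIpC arrays 116, 117 and 15 were lowest, at 5.71, 6.42 and 5.74. Arrays 224, 226, 227 and 228, between 8.78 and 9.01, lay within the pIpC range. The median of the list was 0.74 in run 1, 1.86 in run 2 and 1.36 without arrays 17 and 122. It was 0.94 without array 270.

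The fusion partners and other genes linked to MLL fusions showed no common shift. Aff1, measured here by 1 probe set, read 11.88, 11.66, 11.90, 11.58 and 11.30 with pIpC, against 11.02 to 11.84 with a median of 11.34 (difference 0.34, SE 0.13, unadjusted limma p 0.0229). Whether that probe set also read the fusion transcript was not tested. Kmt2a was at 10.06, 10.43, 10.38 and 9.72 on A992, A1322, A1507 and 270 but at 6.52 on A46, against 9.55 to 10.34 on 10 no pIpC arrays and 6.44 on array 17. Both low arrays, A46 and 17, were also each other's nearest array in run 2 (r = 0.984 across genes, which are not independent replicates). The same arrays were low in Slc2a3, a glucose transporter, at 5.44 and 3.02 against 9.34 to 10.75 elsewhere.

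Of 17 genes of the MLL, AF4 and elongation complexes, 0 were called. At an unadjusted p under 0.05, 2 were higher, against 3.2% of all genes: Aff1 and Mllt10, another fusion partner of MLL (0.37). Among 20 MLL-fusion-associated genes 0 were called, and their median was -0.04. At an unadjusted p under 0.05, 0 were higher and 1 was lower, against 3.2% and 1.4% of all genes. The lower one was Myc, the growth regulator, at 8.66, 10.38, 9.52, 11.22 and 10.85 with pIpC, against 9.84 to 11.51 with a median of 10.83 (difference -0.81, SE 0.27). A992 and A1507 lay below all no pIpC arrays, and the difference was -1.11 in run 1, -0.14 in run 2 and -0.47 without A992. Meis1, a Hoxa9 cofactor (0.09), Cdk6, a kinase of the cell cycle (0.09), Bcl2, a survival factor (0.28), Flt3, a progenitor receptor kinase (-0.16), and Cdkn2a, a tumour suppressor locus (-0.47), had 95% intervals that included 0.

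Among genes of cytokine signalling and growth, 2 STAT5-induced feedback inhibitors had differences near 2. Of 14 measured of 17 listed, 0 were called and the list median was 0.16. At an unadjusted p under 0.05, 3 were higher and 0 lower, against 3.2% and 1.4% of all genes. Besides Cish, these were Socs2, the other such inhibitor, and Ptpn22, a phosphatase of lymphocyte receptor signalling. Socs2 read 11.80, 12.67, 12.76, 12.76 and 12.90 with pIpC, against 8.33 to 12.85 with a median of 10.40 (difference 1.91, SE 0.71). The no pIpC arrays fell into a lower set between 8.33 and 10.71 and 3 arrays, 153, 154 and 17, at 12.85, 12.81 and 12.68 with the pIpC arrays.

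Ptpn22 read 10.72, 9.59, 10.62, 9.44 and 6.80, against 6.87 to 10.62 with a median of 8.36 (difference 1.13, SE 0.48), so that the groups overlapped. Other members had smaller differences: Il7r, the receptor of pre-B cell growth factor (0.50), Stat5a (0.17), Stat5b (0.14) and Pim1, a STAT5-induced kinase (0.23), all had intervals that included 0. The promoter of Cish is printed because its gene led the list. It is from RefSeq (GRCm38.p6, plus strand, 250 bases before to 50 after the start), and capitals mark matches to TTCNNNGAA, the letters of a STAT site, which read the same on both strands.
Cish chr9:107296409-107296708: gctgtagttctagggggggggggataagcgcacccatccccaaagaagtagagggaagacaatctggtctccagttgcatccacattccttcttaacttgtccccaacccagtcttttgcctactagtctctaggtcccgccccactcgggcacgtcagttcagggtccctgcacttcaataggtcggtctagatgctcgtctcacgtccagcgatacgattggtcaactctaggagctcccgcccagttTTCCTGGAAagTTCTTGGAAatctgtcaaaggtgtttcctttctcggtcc
The matches TTCCTGGAA and TTCTTGGAA began 0 and 11 bases after the annotated start and did not overlap. Such a match was in 8.3% of 32851 promoters of this length.

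**Figure D4:**
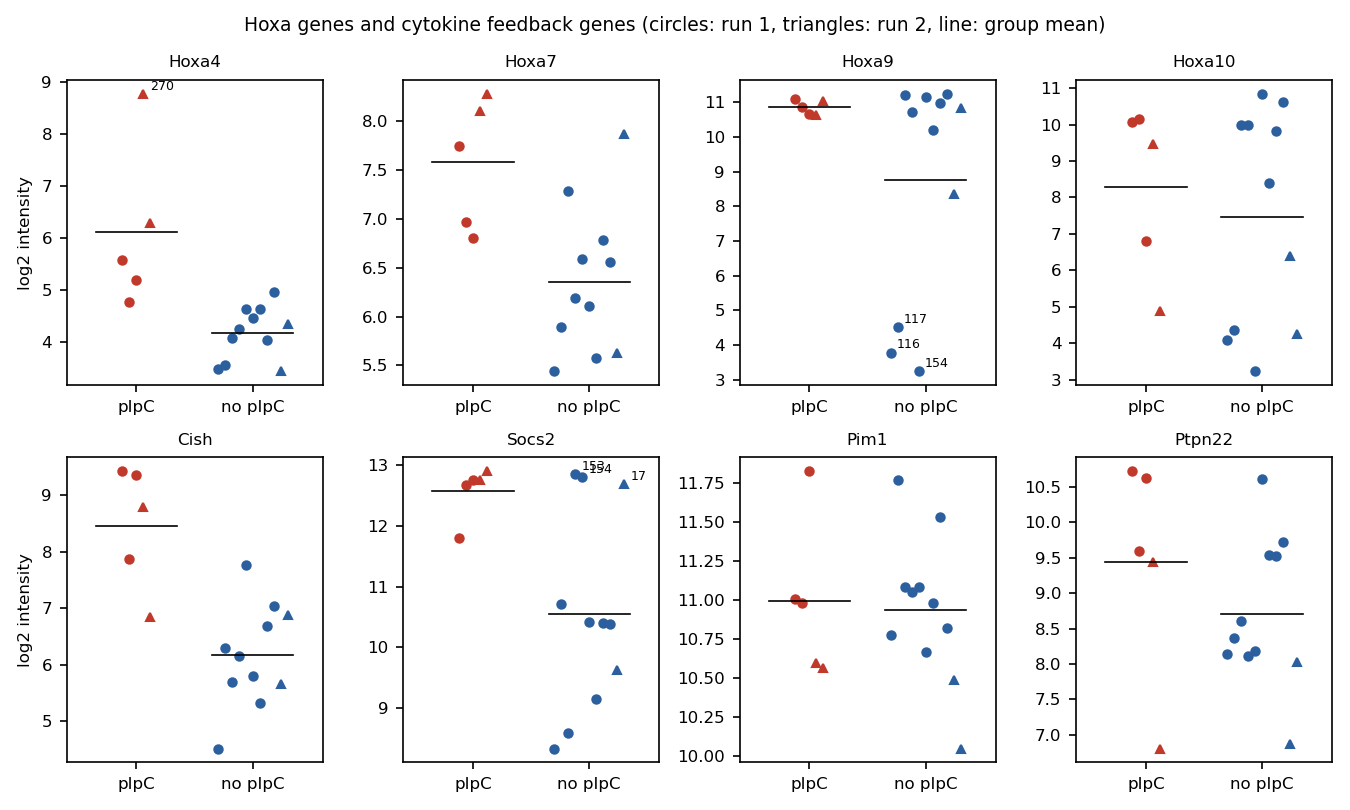
Log2 intensity of 4 Hoxa genes (upper row) and 4 genes of cytokine signalling and growth (lower row). In each panel pIpC arrays are on the left in red and no pIpC arrays on the right in blue. Circles are run 1, triangles run 2, and the line is the group mean. Hoxa9 is uniform with pIpC and low on 116, 117 and 154, and Socs2 is high on all pIpC arrays and on 153, 154 and 17.

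The interferon response, which pIpC sets off in the short term, did not separate the leukemias. Of 29 measured genes of 36 listed, 0 were called and 2 were higher at an unadjusted p under 0.05, against 3.2% of all genes, a background near which a count of 2 says nothing about the list. The median difference was 0.21. The mean of the list per array was 7.75, 6.68, 7.15, 6.45 and 5.95 on A992, A1322, A1507, 270 and A46, against 5.48 to 8.90 with a median of 6.46. The highest arrays were 122 and 117, both without pIpC. The list median was 0.46 in run 1 and -0.43 in run 2. It was 0.002 without A992, the pIpC array highest in the list, and 0.54 without arrays 17 and 122.

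Mx1, the interferon-induced GTPase whose promoter drives the Cre line named above, read 10.51, 7.35, 8.64, 5.49 and 5.42 with pIpC, against 4.77 to 11.34 with a median of 6.32. Its difference of 0.78 had a 95% interval of -1.51 to 3.07. It was 0.02 without A992, 1.80 in run 1, -1.52 in run 2 and -0.28 after adjustment for the myeloid mean, so its direction rested on 1 array and 1 run. Irf7, an amplifier of the response, read 6.12, 4.95, 6.32, 5.0 and 4.89, against 4.60 to 10.26 with a median of 5.68 (difference -0.67). Rsad2 (-0.96) and Oas2 (-1.02), an antiviral enzyme each, lay lower on average and Rtp4 (1.37) and Usp18 (0.96) higher, all with intervals that included 0. Isg15 was not analysed here.

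The 2 members at an unadjusted p under 0.05 were guanylate-binding proteins, GTPases of cell-autonomous defence, described here as the members with the smallest p. Gbp2 read 8.82, 8.04, 8.70, 7.91 and 7.48 with pIpC, against 4.42 to 9.02 with a median of 6.24 (difference 1.66, SE 0.64, adjusted p 0.992). Gbp3 read 9.07, 9.24, 9.15, 9.03 and 8.99, against 5.08 to 9.41 with a median of 7.83 (difference 1.27, SE 0.51). All pIpC arrays were in a narrow range for Gbp3 (SD 0.10), yet array 117 exceeded it and array 17 was at 9.03. Both differences had the same sign in each run, 2.03 and 0.84 for Gbp2 and 1.42 and 0.94 for Gbp3.

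Their promoters are printed because these were the 2 members of the list at an unadjusted p under 0.05. The source and window are those given for Cish, and capitals mark matches to an interferon-stimulated response element, searched as GAAA, any 2 bases and GAAA again, or TTTC, any 2 bases and TTTC on the other strand.
Gbp2 chr3:142620413-142620712: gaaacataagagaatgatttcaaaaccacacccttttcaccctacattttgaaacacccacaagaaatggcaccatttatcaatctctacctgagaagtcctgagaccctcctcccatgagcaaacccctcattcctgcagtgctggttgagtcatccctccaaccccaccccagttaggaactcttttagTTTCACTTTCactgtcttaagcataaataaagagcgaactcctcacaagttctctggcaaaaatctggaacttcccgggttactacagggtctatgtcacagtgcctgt
Gbp3 chr3:142559794-142560093: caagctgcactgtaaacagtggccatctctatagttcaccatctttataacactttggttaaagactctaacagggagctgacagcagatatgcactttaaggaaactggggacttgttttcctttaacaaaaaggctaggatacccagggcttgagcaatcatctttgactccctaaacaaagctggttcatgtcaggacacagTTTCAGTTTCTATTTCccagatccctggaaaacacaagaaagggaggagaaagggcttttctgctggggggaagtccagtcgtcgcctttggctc
Gbp2 had 1 match, 59 bases before its start, and Gbp3 had 2 that overlapped, 45 and 39 bases before. Gbp3 had 2 promoter entries, and the one not printed held no match. Such a match was in 3.44% of the 32851 promoters.

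Genes that sense double-stranded RNA and carry the interferon signal had small differences, mostly in one direction. Of 14 measured of 19 listed, 0 were called and 1 was higher at an unadjusted p under 0.05, against 3.2% of all genes. A positive difference was found in 13 of the 14, against 6110 of all 12393 genes, and their median was 0.32. The median was 0.04 in run 2 and 0.11 without A992. Ifnar1, a chain of the interferon receptor, read 9.61, 9.40, 9.07, 9.84 and 8.83 with pIpC, against 8.08 to 9.44 with a median of 8.86 (difference 0.59, SE 0.24, unadjusted p 0.0281). Tlr3 differed by 0.39 (95% interval -0.49 to 1.26, and 0.08 without A992) and Ifih1 by -0.11 (-1.36 to 1.14). Among 11 genes of MHC class I and antigen processing the median was 0.03, with 0 called.

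Genes of the early B-cell programme did not separate the groups. Array means of 15 early B and surrogate light chain genes were 9.68, 9.15, 9.20, 9.41 and 9.04 with pIpC, against 7.27 (array 122) to 9.77 with a median of 9.47. No member was called or at an unadjusted p under 0.05, and the list median was 0.41, or 0.21 without array 122. Dntt, the nucleotide-adding enzyme of heavy chain joining, read 7.25, 3.91, 4.82, 4.71 and 5.34 with pIpC, against 4.67 to 10.95 with a median of 6.68 (difference -2.07, 95% interval -4.40 to 0.27). Kit, a progenitor receptor kinase, read 4.04, 4.49, 4.90, 2.90 and 3.10, against 2.60 to 10.68 with a median of 6.96 (difference -1.95). High Dntt above 9 and high Kit above 8 occurred only on no pIpC arrays of run 1, and in run 2 the differences were -0.13 and -0.16.

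Vpreb1, a surrogate light chain gene, was between 12.90 and 13.45 on every pIpC array, and between 12.55 and 13.35 on every no pIpC array but 122. Medians of 18 transcription factors of the B lineage (0.27), 15 genes of the receptor and cell surface (0.11) and 15 mature B and antigen presentation genes (-0.17) came with 0 called members. Leaving out array 122 changed the first 2 to 0.08 and 0.01. The mature B median was 0.17 in run 1, -0.73 in run 2 and -0.01 without arrays 17 and 122.

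Growth, stress and metabolic lists held no called gene. Of 29 cell cycle genes, 23 had a negative difference, against 6283 of all 12393 genes, and their median was -0.17. At an unadjusted p under 0.05, 1 was higher and 2 were lower, against 3.2% and 1.4% of all genes. The higher one was Cdkn1b, the p27 cyclin kinase inhibitor (0.48), and the lower ones were Top2a, the replication topoisomerase (-0.36), and Mcm6, a replication helicase subunit (-0.32). The list median was 0.07 in run 2, -0.04 without A992, -0.33 without A1322 and -0.21 without arrays 17 and 122. Without A992 the differences of Top2a and Mcm6 were -0.21 and -0.20. Of 18 immediate early and stress genes, 15 had a negative difference, against the same 6283 of all 12393 genes. They were led by Klf4 (-0.98), 0 were at an unadjusted p under 0.05, and the list median was -0.33. That median was -0.15 without array 270, -0.15 in run 2 and -0.17 with Eif2s3y as a covariate. The median was -0.14 for 15 p53 targets, with 1 higher at an unadjusted p under 0.05, the stress gene Gadd45a (0.86). Medians were 0.03 for 12 BCL2-family genes and 0.03 for 13 genes of the glycolysis list. That list as matched includes Pigq (0.04), a gene of GPI-anchor synthesis and not of glycolysis. Medians were -0.09 for 18 amino acid and ATF4 response genes and -0.30 for 13 stem and progenitor genes.

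Among markers of other cells the myeloid list had the largest median difference of the 5 lists. Its 17 measured members had a median of 1.38 (1.22 without arrays 17 and 122), with 0 called. A positive difference was found in 13 of them and a negative one in 4, against 6110 and 6283 of all 12393 genes. At an unadjusted p under 0.05, 5 were higher and 0 lower, against 3.2% and 1.4% of all genes. The array mean of the list was 6.94, 8.51, 7.44, 7.14 and 7.60 with pIpC, against 4.91 to 9.33 with a median of 6.54. Mpo, the granule peroxidase, read 9.67, 11.14, 9.31, 9.59 and 9.14, against 3.67 to 12.03 with a median of 6.86 (difference 2.83, SE 1.28). Lcn2, a neutrophil lipocalin, read 5.39, 7.91, 7.27, 6.45 and 8.0, against 3.08 to 7.75 with a median of 4.12 (2.08, SE 0.72). On these 2 genes every pIpC array thus lay above the no pIpC median. In Mpo array 122 lay above all pIpC arrays and array 15 (10.96) above 4 of 5. Not every member had this pattern. Csf1r read 8.78, 8.10, 8.22, 5.56 and 7.17 with pIpC, against 3.68 (154) to 12.17 (117) without. Mmp8 read 4.33 to 4.87 with pIpC, against 4.20 to 7.20. Normal pre-B sorts had 9.73 ± 0.71 for Mpo (SD, n = 8).

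More myeloid cells and more myeloid RNA per cell cannot be told apart in such bulk samples. The sort named above selected B220+ cells, and how many myeloid cells remained after it was not tested. With the myeloid mean as a covariate, Cish (2.74), Abcg1 (1.42), Hoxa4 (2.12) and Gbp2 (1.53) kept their sign, the interferon median was -0.07 and the dsRNA-sensing median 0.13. The part of these cells in any result was otherwise not tested. Medians were 0.03 for 14 T and NK cell markers, 0.12 for 9 erythroid markers, 0.17 for 6 plasma cell markers and -0.37 for 10 plasmacytoid dendritic cell markers, with 0 called. The last was -0.06 without arrays 17 and 122. Its highest array means were on no pIpC arrays 117, 122 and 153, at 8.35, 9.01 and 8.62, against 6.37 to 7.28 with pIpC. Among the 9 erythroid markers, 2 were higher at an unadjusted p under 0.05, against 3.2% of all genes. They were Tfrc, the transferrin receptor (0.34), and Car1, a carbonic anhydrase (0.47). The erythroid haemoglobin gene Hba-a1 was near background, at 3.27 on average in each group.

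Sex-linked transcripts were unevenly spread. Eif2s3y was high on 3 of 5 pIpC arrays (A992, 270 and A46, between 10.28 and 11.29) and on 3 of 11 no pIpC arrays (153, 154 and 17, at 7.73, 10.42 and 10.19), and at 2.69 or below on the rest. With Eif2s3y as a covariate, Cish differed by 2.10, Socs2 by 1.39 and Hoxa4 by 1.57. The 3 no pIpC arrays with Eif2s3y were the same as the 3 with high Socs2. For RNA quality, the difference between 3' and 5' beta-actin controls was 1.35 to 1.46 with pIpC and 1.18 to 1.39 without in run 1, and 0.74 to 0.83 and 0.90 in run 2. The part of sex and of RNA quality in the differences was not tested further.

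**Figure D5:**
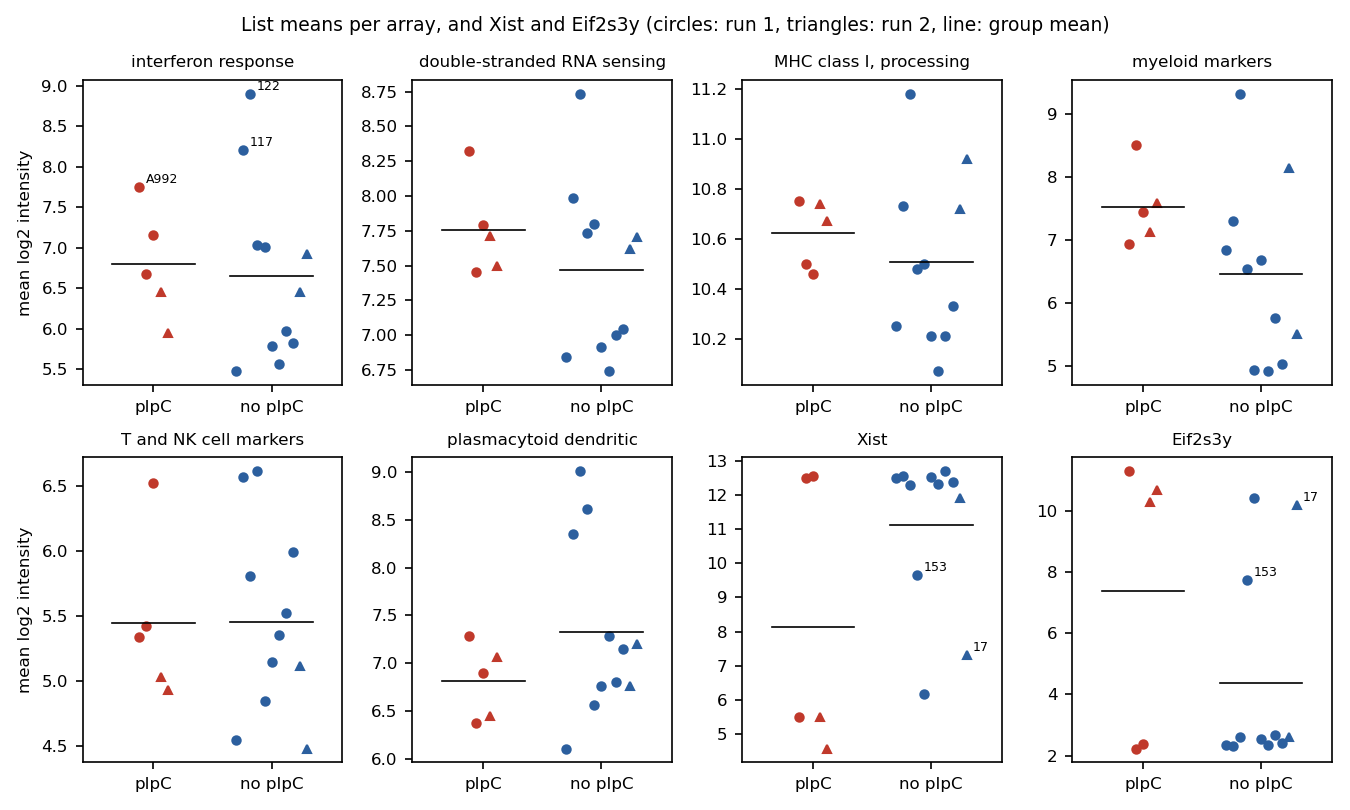
Mean log2 intensity per array of 6 gene lists, and the levels of Xist and Eif2s3y, on pIpC arrays (left in each panel, red) and no pIpC arrays (right, blue); circles are run 1, triangles run 2, and the line is the group mean. The highest interferon means are on no pIpC arrays 122 and 117, and array 153 has both sex-linked transcripts at intermediate levels.

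The mean closeness to each normal stage did not differ between the leukemias beyond its spread. All 5 pIpC arrays were closest to normal pre-B cells, as were 8 of 11 no pIpC arrays, while 117, 122 and 153 were closest to pro-B cells. For array 122 the correlation was 0.918 with pro-B and 0.852 with pre-B, and for 153 the values were nearly equal (0.930 and 0.929). Over 5443 genes that differed between the 4 normal stages (limma, adjusted p under 0.05), the correlation with normal pre-B averaged 0.927 ± 0.0125 on pIpC arrays and 0.917 ± 0.0253 on no pIpC arrays (SD). Differences were 0.0075 for pro-B, 0.0125 for pre-B, 0.0148 for immature B and 0.0143 for mature B, with adjusted p-values of 0.636, 0.438, 0.438 and 0.438 in an exact two-sided permutation test within runs (1320 arrangements). In run 1, pairs of pIpC arrays correlated over all genes at a median of 0.977, pairs across the groups at 0.963 and pairs of no pIpC arrays at 0.946, given as a description. Run 2 did not show the same order, with the pIpC pair at 0.963, the pairs across the groups at 0.968 and the no pIpC pair at 0.959. The median SD of a gene in run 1 was 0.23 over 3 pIpC arrays and 0.43 over 9 no pIpC arrays.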

How the data were processed

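The authors deposited 1 intensity value per probe set for each of 39 Affymetrix arrays, and RMA is named per the submitters' processing notes; the intensities are on a linear scale. Whole-array normalization by RMA can hide a shift common to most genes. Here log2 was taken with no offset. Of 22690 probe sets, 64 controls, 691 with several gene symbols and 1555 with none were left out, and the probe set with the highest mean over 39 arrays stood for each of 12393 genes. Names came from the platform annotation, and the Entrez IDs of 20351 of 20380 probe sets were in RefSeq. Differences were fitted in limma 3.58.1 (R 4.3.3; lmFit and eBayes with an intensity trend) on 16 leukemic arrays with accession run as covariate, with Benjamini-Hochberg adjustment and a call at an adjusted p of 0.05. The fit was tested on simulated data. The number of arrays limits the precision.

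Named genes were up to 12 per direction with the smallest p among those with a difference of at least 1 and a group mean above 3.93, predicted genes left out, plus 21 preset genes and up to 3 members per list by p and by size. Members named beyond that, and the fit of each probe set on its own, were chosen after values were seen. The arrays and lists were chosen with earlier results of these data known. Alternatives covered the run, normalization, probe sets, weights, covariates and arrays left out.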

Additional observations from a re-analysis of the deposited data

Results flagged for a closer look

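In 6 of 128 named genes 1 pIpC array stood apart from the other 4, by the gap to its nearest neighbour relative to the range of the group (Dixon's test at the 95% level). Chance gives about 1 in 20. Array A46 was low in 3 of them: Kmt2a at 6.523 (others 9.721 to 10.43), Plk2, a polo-like kinase, at 4.3 (others 5.27 to 5.651), and Slc2a3 at 5.436 (others 9.863 to 10.66). Erg, a transcription factor of early progenitors, was at 9.856 on array 270 (others 7.839 to 8.301). Socs2 was at 11.8 on A992 (others 12.67 to 12.9), and Mpo was at 11.14 on A1322 (others 9.141 to 9.671).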

How the results depend on the processing

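The count of genes called, 0 in the fit reported, was 79 with all 39 arrays in 1 fit, 2 with the _x_at, _s_at and _a_at probe sets left out (Mycn, difference -8.15, and Mapre1, difference 0.78), 1 in run 1 alone (the predicted gene Gm29722, adjusted p 0.00362), 1 without array 116 (Abcg1, difference 1.26, adjusted p 0.0468) and 1 with every probe set fitted on its own, arrays 17 and 122 kept or left out (limma throughout; array 17 was left out because of its value on that probe set, so the second of these adds no support). Leaving out each array in turn gave 0 to 1 called genes, the 1 coming without 116 or without A46 (Gm29722, difference 2.10), and 261 to 760 genes at an unadjusted p under 0.05, with the low of 261 without A992. Without arrays 17 and 122 there were 0 called genes and 745 at an unadjusted p under 0.05, with a smallest adjusted p of 0.149. The 24 leading genes kept their sign in every setting in which they were measured. They were chosen by p and size on these same arrays, so this adds no support. Of 128 named genes, 16 turned sign in run 2 alone and at most 4 in any other setting. Closeness to the 4 normal stages stayed on the same side of the threshold in the settings run. The probe-set fits, the Eif2s3y covariate and the fits without 153 or without 17 and 122 were added after the data were seen. A Ddx3y covariate was not run because no usable probe set measured it. The 79 calls, of 12393 genes, came from a fit in which the normal arrays shared the estimate of spread. The cause of these changes was not tested. No paired analysis was possible because no label used here pairs a pIpC array with a no pIpC array.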
